A study of Bos taurus with 16 samples.

Results

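RNA polymerase II (Pol II), its general transcription factors and the Mediator complex were followed through 90 loci of the 27393 loci in the deposited read table. A locus was taken when its gene name began with POLR2, GTF2, TAF plus a digit or MED plus a digit, or was TBP, TBPL1 or TBPL2. The 90 loci carry 84 gene names, because GTF2IRD2, MED13L, MED15, TAF15, TAF5L and TAF6 each have several loci. RNA was sequenced from 16 single bovine oocytes and embryos, all matured or developed in the animal, with 2 libraries at each of 8 stages: mature metaphase II oocyte (MII), 2-cell (2C), 4-cell (4C), 8-cell (8C) and 16-cell (16C) embryo, early morula (EM), compact morula (CM) and blastocyst (BL). The labels name no treatment or genotype, and the groups are given by developmental stage. Embryonic genome activation (EGA) of such embryos lies between the 4-cell and 8-cell stages in the study, so the 6 libraries of MII, 2C and 4C are called before EGA and the 10 libraries from 8C to BL after EGA.

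Pol II makes all messenger RNA. It is brought to promoters by the TBP-containing complex TFIID and by TFIIA, TFIIB, TFIIE, TFIIF and TFIIH, while Mediator carries signals from DNA-bound activators to the polymerase. A mature oocyte is transcriptionally silent, so the first polymerases of the embryo are built from stored maternal messages and proteins, until the embryo transcribes the genes of its own machinery at EGA.

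Values are read counts scaled by the authors for sequencing depth, here called normalised counts. They are not divided by gene length, so a gene was compared only with itself. Where a median is followed by brackets, these give the lowest and the highest library. The libraries held 607672 to 3379426 reads (median 1347534.5), and 3 reads, taken as the floor of detection, correspond to 1.09 to 5.40 normalised counts. The 90 loci received 0.257% to 0.622% of the reads of a library. The locus of MED13L, a subunit of the Mediator kinase module, and its second, smaller locus took 11.4% to 67.1% of these member reads (median 35.6%). Of the 90 loci, 83 had at least 1 read and 49 had reads in all 16 libraries. Each library was a whole oocyte or embryo, so fewer cells using a gene and less RNA per cell cannot be told apart, and p-values measure the spread between single oocytes and embryos. The test at EGA pooled the stages of each period without a term for stage. Its spread therefore also holds the differences between the pooled stages. Normalised counts are relative to the other RNA of a library, and total RNA per embryo was not analysed here. The oocyte markers GDF9, ZP2, ZP4, H1FOO, OOSP1 and KPNA7 all fell at EGA, ZP3, NLRP5 and FIGLA had too few reads for that test, BMP15 had no read, and the 2 libraries of 8C stood apart from each other. The summed level of the 10 oocyte markers was 4076 to 25790 before EGA, 8.09 to 64.3 from 16C on, 41.4 in 8C replicate 1 and 1772 in 8C replicate 2. The Pearson correlation between replicates across loci was 0.73 at 8C and 0.84 to 0.93 at the other stages.

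Transcripts of 70 members were abundant enough to be tested over the 8 stages, and 41 of them changed with stage (58.6% of the members, against 66.7% of all 9670 loci tested, limma, adjusted p under 0.05). The stage with the highest mean was MII for 15 of the 70 (21.4%, against 19.6% of all loci), 2C for 10 (14.3%, against 9.29%) and 4C for 6 (8.57%, against 13.6%). It was 8C for 11 (15.7%, against 11.1%), 16C for 4 (5.71%, against 9.44%) and EM for 10 (14.3%, against 8.54%). It was CM for 8 (11.4%, against 7.91%) and BL for 6 (8.57%, against 20.5%), and these differences were not tested. Between all stages before EGA and all stages after it, 58 members could be tested, and 35 passed (60.3%, against 66.8% of all 6910 loci tested). Of these 19 were higher after EGA (32.8% of the members, against 36.9% of all loci) and 16 were lower (27.6%, against 29.9%), while 23 of the 58 did not pass the threshold. The median log2 change was 0.05 over the 58 members and 0.23 over all loci. When libraries were scaled by total reads these medians became 0.48 and 0.67, and single changes are to be read relative to that shift of all loci. The values before and after EGA did not overlap for 6 of the members that were higher (10.3%, against 16.0% of all loci) and for 9 of those that were lower (15.5%, against 14.1%). The shares of calls and of groups without overlap lie near those of all loci. Such counts over all members are therefore no result about them, and the complexes are described in turn.

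**Figure D1:**
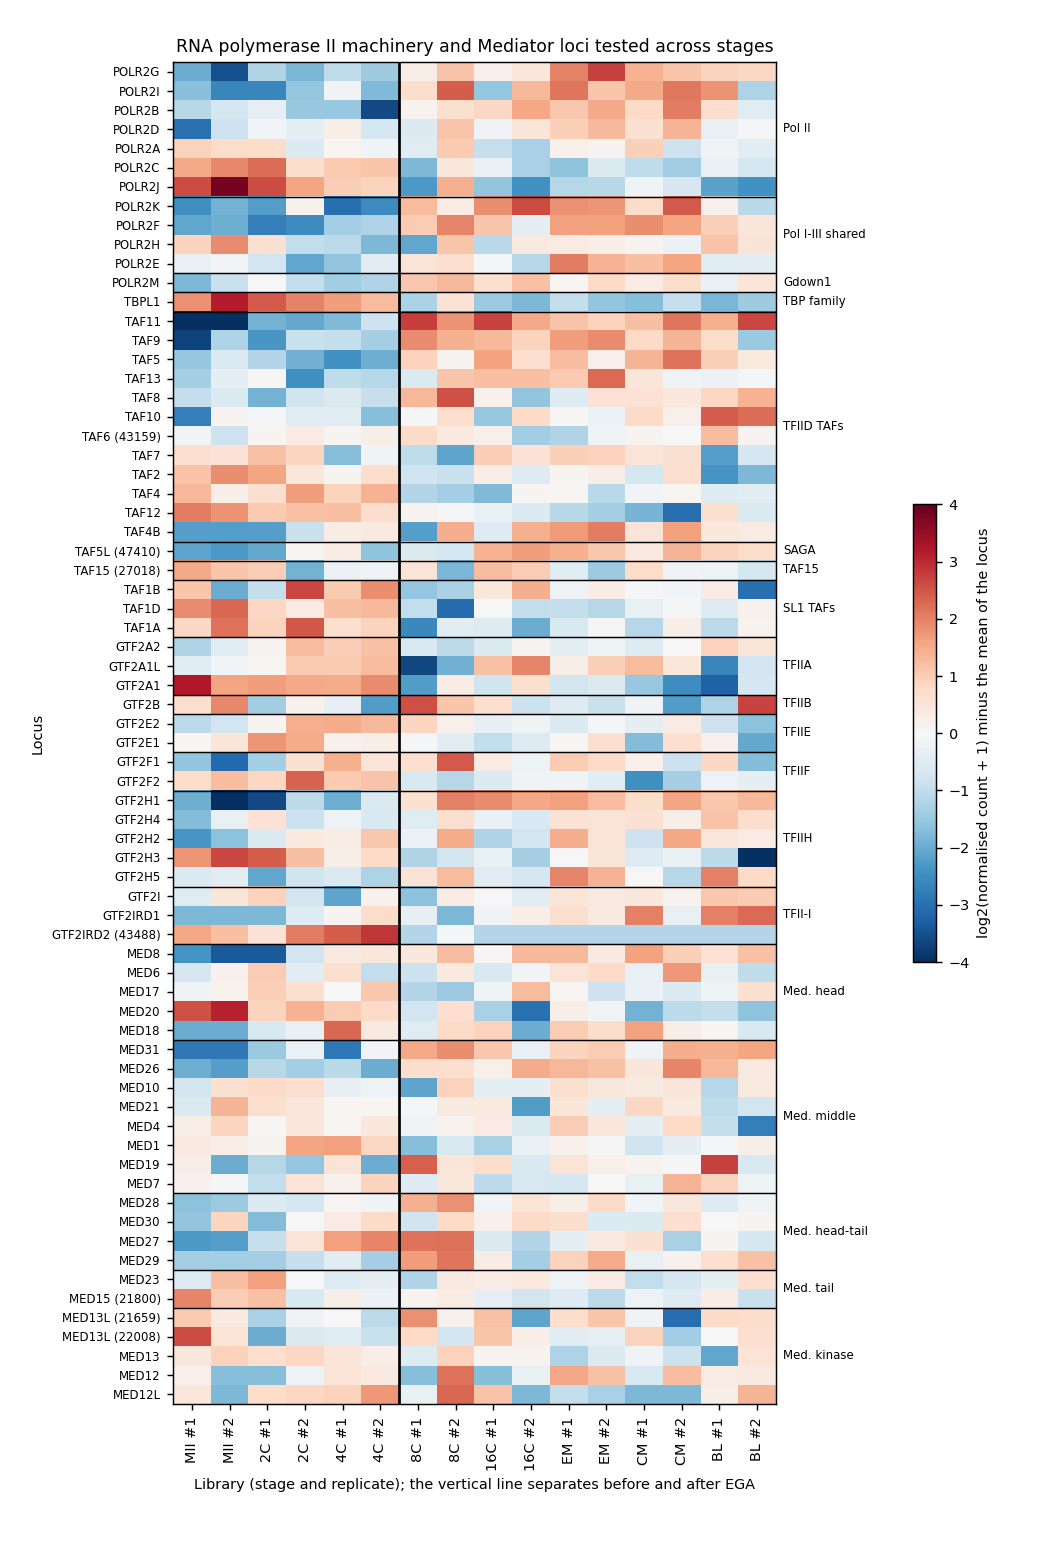
Each row is 1 of the 70 tested loci, each column 1 of the 16 libraries, and the colour is log2(normalised count + 1) minus the mean of that locus over all libraries. Rows are grouped by complex (labels at the right, with Med. for Mediator), and numbers in brackets are the locus number where a name has several loci. Rows that switch from blue to red at the vertical line (TAF11, POLR2F, MED26) stand beside rows that switch from red to blue (TBPL1, GTF2A1, POLR2J).

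Among the 12 Pol II subunits, 10 were tested at EGA, and 6 were higher, 2 lower and 2 did not pass, with a median log2 change of 1.80. Over all loci 36.9% were higher and 29.9% lower, with a median of 0.23. The counts of the complexes are set beside these shares as descriptions, and whether a complex differed from all loci was not tested. The 4 subunits specific to Pol II that rose were POLR2G, POLR2I, POLR2B and POLR2D. POLR2G, which forms the stalk of the enzyme with POLR2D, had a median of 2.72 (0 to 4.61) normalised counts before EGA and a median of 21.9 (11.97 to 73.9) after it (log2 change 2.93 ± 0.47 SE, adjusted p = 1.34e-05). The highest library before EGA was below the lowest library after it. Its stalk partner POLR2D rose from a median of 14.7 (1.85 to 25.8) to a median of 31.99 (14.4 to 56.3) (log2 change 1.27 ± 0.47 SE, adjusted p = 0.0214). The ranges of POLR2D overlapped, and without MII replicate 1, the library with the lowest value, the change was 0.83 (adjusted p = 0.0828). The call of POLR2D was also lost in edgeR on the recovered reads (1.07, adjusted p = 0.0614). POLR2I, a subunit that contributes to transcriptional fidelity, had a median of 0.868 (0 to 4.61) before EGA and a median of 15.6 (1.09 to 32.1) after (log2 change 2.76 ± 0.61 SE, adjusted p = 0.000449). POLR2B, the second largest subunit and part of the active centre, had 13.8 and 19.1 in MII, 24.5 and 10.2 in 2C and 10.1 and 1.62 in 4C, then 34.2 and 49.3 in 8C, 56.6 and 92.2 in 16C, 67.2 and 90.3 in EM, 55.4 and 130.4 in CM and 49.7 and 22.2 in BL (log2 change at EGA 2.34 ± 0.46 SE, adjusted p = 0.000147). Both 4C libraries were among the lowest of all, and BL replicate 2 alone reached down into the range seen before EGA.

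A pair of subunits went the other way. POLR2C and POLR2J pair with each other early in the assembly of the enzyme, and both transcripts fell. POLR2J had 137 and 320.2 normalised counts in MII, 135 and 66.1 in 2C, 43.4 and 40.6 in 4C, 3.60 and 59.6 in 8C, 6.53 and 3.23 in 16C, 9.27 and 9.38 in EM, 18.8 and 13.1 in CM and 4.06 and 3.17 in BL (log2 change at EGA -3.33 ± 0.57 SE, adjusted p = 3.18e-05). Only 8C replicate 2 overlapped with the libraries before EGA. POLR2C fell from a median of 54.1 (35.03 to 104) to a median of 11.3 (5.40 to 28.7) without overlap (log2 change -2.27 ± 0.40 SE, adjusted p = 4.1e-05). POLR2A, the largest subunit, which carries the C-terminal domain, did not pass the threshold: it had a median of 35.1 (17.2 to 48.9) before and a median of 21.2 (9.70 to 53.9) after EGA (log2 change -0.47 ± 0.41 SE, adjusted p = 0.317). POLR2A did not pass over the 8 stages either (adjusted p = 0.387), and the 2 libraries of 8C, CM and 2C lay far apart.

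Of the 5 subunits that Pol II shares with Pol I and Pol III, POLR2F and POLR2K rose, POLR2H did not pass, POLR2E had too few reads for the EGA test and POLR2L had no read. POLR2F stayed between 0.791 and 4.06 normalised counts in every library before EGA and between 8.09 and 45.9 after it (log2 change 3.17 ± 0.42 SE, adjusted p = 1.4e-06). The groups did not overlap. POLR2K had 1.85 and 3.19 in MII, 2.37 and 16.4 in 2C, 0.922 and 1.62 in 4C and 36.03 and 18.4 in 8C, reached 54.4 and 93.8 in 16C, and had 53.3 and 51.6 in EM, 24.4 and 82.6 in CM and 16.2 and 6.34 in BL (log2 change 3.17 ± 0.56 SE, adjusted p = 4.65e-05). Only 2C replicate 2 rose into the lower part of the later range. POLR2H had a median of 34.3 (8.93 to 128) before and a median of 41.8 (7.21 to 76.1) after EGA (log2 change 0.12 ± 0.55 SE, adjusted p = 0.854). POLR2E changed with stage (adjusted p = 0.0155), with 22.4 and 14.1 in EM and 12.2 and 15.9 in CM against 0.365 to 8.03 in the other libraries. POLR2M (Gdown1), a protein that binds the finished polymerase and makes it dependent on Mediator, rose from a median of 3.63 (1.85 to 8.70) to a median of 14.6 (7.10 to 22.9) (log2 change 1.67 ± 0.39 SE, adjusted p = 0.000792) and was highest in 8C, at 19.8 and 22.9.

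**Figure D2:**
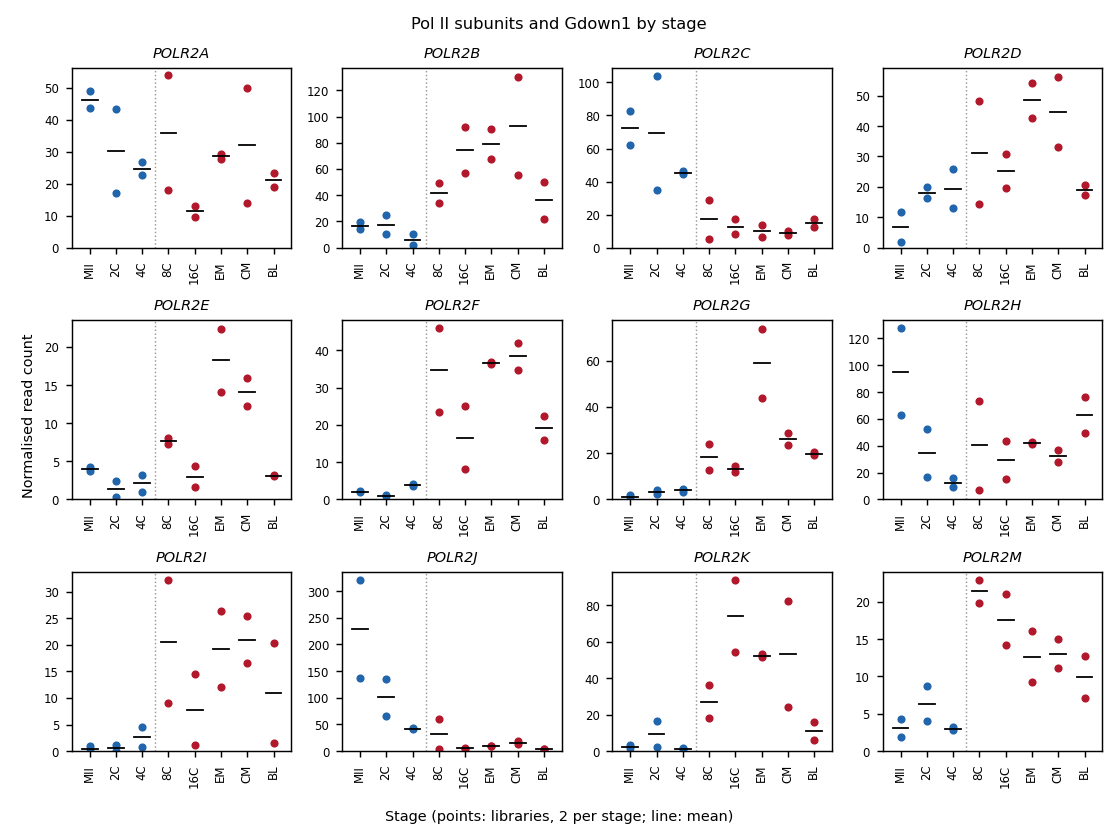
Normalised read counts (linear axis from 0) of 11 Pol II subunits and POLR2M at each stage, with blue points for libraries before EGA, red points for libraries after EGA and a bar for the mean of the 2 libraries. POLR2F and POLR2G stay near 0 until 4C and rise at 8C, whereas POLR2C and POLR2J are lower after EGA.

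Of the TBP family, only TBPL1 could be tested. TBPL1 encodes a TBP-related factor that binds TFIIA and TFIIB and serves promoters without a TATA box. It had 191 and 474 normalised counts in MII, 293 and 211 in 2C and 171 and 129 in 4C. After EGA it had 21.6 and 79.1 in 8C, 18.5 and 14.6 in 16C, 27.1 and 17.2 in EM, 15.5 and 27.2 in CM and 14.2 and 19.01 in BL (log2 change at EGA -3.29 ± 0.38 SE, adjusted p = 2.13e-07). Every library before EGA was above every library after it, and 8C replicate 2 was the highest of the later ones. TBPL2, the factor that replaces TBP in the oocyte of the mouse, had 18 reads in 4 libraries, with 9.50 normalised counts in 2C replicate 1 and at most 2.03 in the others. TBP itself had no read in any library. It lies in a run of 2578 consecutive loci of the table that are all at 0, so nothing can be read from its 0, and the same holds for the oocyte marker BMP15.

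TFIID binds the core promoter through TBP and the TBP-associated factors (TAFs). Of 17 loci for TFIID TAFs, 11 were tested at EGA: 6 were higher, 3 lower and 2 did not pass, with a median log2 change of 1.41 (all loci: 36.9% higher, 29.9% lower, median 0.23). TAF11 had the largest rise of the 58 members tested at EGA, with a log2 change of 4.86 ± 0.65 (SE, adjusted p = 1.29e-06). It had no read in either MII library, 14.2 and 12.8 normalised counts in 2C, 15.7 and 30.9 in 4C, 391 and 197 in 8C, 373 and 163 in 16C, 124 and 104 in EM, 129.7 and 251 in CM and 151 and 361 in BL. The lowest library after EGA held more than 3 times the count of the highest before it. TAF11 was also the only member that passed between MII and 2C, before EGA: the 53 reads in 2C against 0 reads in MII gave a ratio of at least 8.93-fold with the floor of 3 reads over the MII libraries.

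Several TAFs fold against each other as histone-like pairs, and in 3 of 4 such pairs both partners went the same way, a pattern noticed once the values were known and given here as a description. TAF13, the partner of TAF11, rose from a median of 3.47 (0.730 to 8.70) to a median of 15.4 (5.40 to 44.2) (log2 change 1.67 ± 0.49 SE, adjusted p = 0.00464). TAF8 rose from a median of 5.94 (2.37 to 7.45) to a median of 17.7 (3.23 to 72.3) (log2 change 1.52 ± 0.50 SE, adjusted p = 0.0108) and was highest in 8C, at 30.6 and 72.3. TAF10, its partner, had a median of 26.1 (4.62 to 39.4) before and a median of 50.4 (11.97 to 198) after EGA (log2 change 1.41 ± 0.54 SE, adjusted p = 0.0266). The highest values of TAF10 were those of BL, 198 and 174, where CM had 63.2 and 42.2. Its call at EGA was lost without MII replicate 1 (1.04, adjusted p = 0.0935) and without 4C replicate 2 (1.25, adjusted p = 0.0640). TAF4 and its partner TAF12 both fell and did not overlap between the groups. TAF4 went from a median of 30.5 (15.95 to 44.5) to a median of 9.32 (3.27 to 14.6) (log2 change -1.65 ± 0.40 SE, adjusted p = 0.00115). TAF12 went from a median of 34.7 (24.4 to 63.7) to a median of 9.60 (0.938 to 23.3) (log2 change -2.13 ± 0.49 SE, adjusted p = 0.000619). The pair of TAF9 and TAF6 was not alike: TAF9 rose from a median of 9.25 (0.923 to 12.4) to a median of 61.8 (7.92 to 92.3) (log2 change 2.79 ± 0.51 SE, adjusted p = 6.56e-05), and TAF6 had a median of 11.1 (5.32 to 13.1) before and a median of 11.1 (3.23 to 25.4) after (log2 change 0.04 ± 0.43 SE, adjusted p = 0.945). Whether TAF9 and TAF6 differed from each other was not tested.

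TAF5, the WD-repeat scaffold of TFIID, had 116 and 229.7 normalised counts in MII, 151 and 90.9 in 2C, 63.6 and 88.5 in 4C, 659 and 370.5 in 8C, 1050.5 and 543 in 16C, 818 and 398 in EM, 879.9 and 1539.6 in CM and 664 and 450.0 in BL (log2 change at EGA 2.56 ± 0.36 SE, adjusted p = 2.91e-06). Its groups did not overlap, and CM replicate 2 was the highest. TAF2, which contacts the initiator element, fell from a median of 68.5 (37.8 to 131) to a median of 22.7 (6.09 to 57.2) (log2 change -1.55 ± 0.45 SE, adjusted p = 0.00457), with the lowest values in BL, 6.09 and 9.51. TAF7 did not pass at EGA (-0.38 ± 0.59 SE, adjusted p = 0.58) but changed over the stages (adjusted p = 0.0186), with 3.60 and 1.15 in 8C and 17.4 and 12.9 in 16C. TAF1, the largest TAF, had 1 read at its locus. The study's own values for TAF1 lie above its detection limit at every stage, so this 1 read is no measure of TAF1 expression. TAF3 had 43 reads in 9 libraries.

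**Figure D3:**
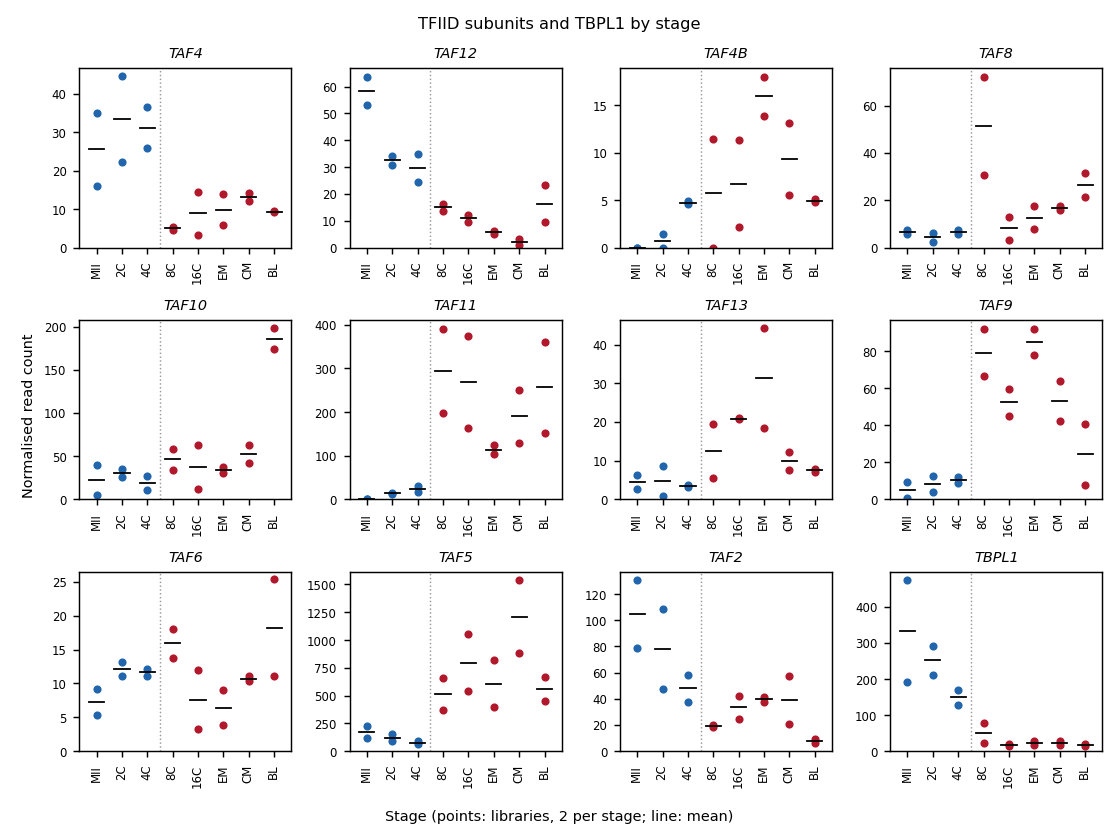
Normalised read counts (linear axis from 0) of 11 TFIID TAFs and TBPL1 at each stage, with blue points for libraries before EGA, red points for libraries after EGA and a bar for the mean of the 2 libraries. TAF5, TAF9 and TAF11 are higher after EGA and TAF4, TAF12, TAF2 and TBPL1 are lower, and TAF10 is highest in BL, at 198 and 174.

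TAFs of other complexes were few. TAF5L, the TAF5-like subunit of the SAGA coactivator, rose from a median of 4.82 (3.19 to 23.98) to a median of 39.9 (11.5 to 64.7) (log2 change 2.05 ± 0.50 SE, adjusted p = 0.00106). It was still at 12.6 and 11.5 in 8C and at 52.3 and 64.7 in 16C. The SL1 complex brings Pol I to ribosomal DNA, and of its 4 TAFs 2 fell, 1 did not pass and TAF1C was too low to test. Of all loci 29.9% were lower. TAF1D fell from a median of 547 (288 to 1124) to a median of 139.8 (26.4 to 258) (log2 change -2.08 ± 0.43 SE, adjusted p = 0.000237). TAF1A fell from a median of 30.1 (25.8 to 92.7) to a median of 10.5 (1.80 to 18.8) (log2 change -2.11 ± 0.47 SE, adjusted p = 0.000545). Neither overlapped between the groups, and 14.1% of all loci were lower without overlap. TAF15, an RNA-binding protein found with TFIID, did not pass (-0.34 ± 0.55 SE, adjusted p = 0.589).

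The general factors TFIIA, TFIIB, TFIIE, TFIIF and TFIIH have 13 members, of which 11 were tested at EGA. Only GTF2H1 was higher, GTF2A1, GTF2F2, GTF2H3 and GTF2E1 were lower, and 6 did not pass, with a median log2 change of -0.68 (all loci: 36.9% higher, 29.9% lower, median 0.23). TFIIA steadies TBP on DNA. GTF2A1, its large precursor subunit, had 437 and 139 in MII, 149.5 and 135 in 2C, 131 and 175 in 4C, 9.01 and 57.3 in 8C, 26.1 and 72.8 in 16C, 27.8 and 30.9 in EM, 15.5 and 7.51 in CM and 4.06 and 28.5 in BL (log2 change at EGA -3.02 ± 0.51 SE, adjusted p = 2.6e-05). MII replicate 1 stood far above the other libraries before EGA, and the groups did not overlap. GTF2A2, the small subunit, did not pass (-0.49 ± 0.43 SE, adjusted p = 0.318). TFIIB, encoded by GTF2B, sets the start site. GTF2B had too few reads for the EGA test, with 0 to 17.0 normalised counts before EGA, and its libraries disagreed within stages, as with 1.01 and 30.1 in BL.

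In TFIIF, which travels with Pol II, the small subunit GTF2F2 fell from a median of 101 (78.5 to 246) to a median of 32.99 (7.76 to 42.05) without overlap (log2 change -1.96 ± 0.38 SE, adjusted p = 0.000126). The large subunit GTF2F1 did not pass (0.93 ± 0.65 SE, adjusted p = 0.216). TFIIE recruits TFIIH. Its GTF2E1 fell from a median of 12.6 (10.2 to 34.8) to a median of 7.94 (1.58 to 15.9) (log2 change -1.12 ± 0.48 SE, adjusted p = 0.0446), a call lost under 13 of the alternatives, among them scaling by total reads (-0.69, adjusted p = 0.278), the fit with a replicate block (adjusted p = 0.0512) and those without 2C replicate 1 (-0.91, adjusted p = 0.121) or 2C replicate 2 (-0.96, adjusted p = 0.107). GTF2E2 did not pass at EGA (-0.68 ± 0.45 SE, adjusted p = 0.192).

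TFIIH opens the promoter and phosphorylates the polymerase, and its core subunits went in opposite directions. GTF2H1, the p62 subunit, had 4.62 and 0 in MII, 0.791 and 9.49 in 2C, 4.61 and 13.8 in 4C, 32.4 and 88.3 in 8C, 80.6 and 63.1 in 16C, 67.2 and 50.8 in EM, 34.4 and 64.7 in CM and 45.7 and 52.3 in BL (log2 change at EGA 3.63 ± 0.50 SE, adjusted p = 1.8e-06). The groups did not overlap. GTF2H3, the p34 subunit, had 62.8 and 119 in MII, 99.7 and 42.3 in 2C and 21.2 and 31.7 in 4C, and 0 to 25.02 after EGA (log2 change -2.44 ± 0.57 SE, adjusted p = 0.000804). EM replicate 2 alone, at 25.02, lay above the lowest 4C library. GTF2H2 and GTF2H4 did not pass (0.74 ± 0.57 and 0.82 ± 0.42 SE, adjusted p = 0.256 and 0.0918). Of the other TFIIH genes, taken from a list of transcription genes outside the members, 4 were tested and 3 of them fell, where 29.9% of all loci did. CDK7, the kinase, went from a median of 54.8 (38.7 to 85.1) to a median of 10.2 (0 to 19.4) (log2 change -2.67 ± 0.53 SE, adjusted p = 0.000143), its cyclin CCNH from a median of 164 (75.96 to 234) to a median of 31.02 (9.38 to 42.6) (-2.44 ± 0.38 SE, adjusted p = 1.09e-05), and the helicase ERCC3 from a median of 72.7 (29.5 to 99.1) to a median of 17.1 (4.59 to 26.9) (-1.99 ± 0.40 SE, adjusted p = 0.000181). MNAT1, which holds the kinase and cyclin together, did not pass (0.08 ± 0.61 SE, adjusted p = 0.91).

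Of the TFII-I family, DNA-binding factors that share the GTF2 name, GTF2I did not pass at EGA (0.48 ± 0.46 SE, adjusted p = 0.365). One locus of GTF2IRD2 had 5.54 and 4.25 normalised counts in MII, 2.37 and 8.39 in 2C, 11.1 and 15.4 in 4C and 1 read in all 10 libraries after EGA, that of 8C replicate 2. It was too low for the EGA test but changed over the stages (adjusted p = 0.000596). GTF2IRD1 also changed over the stages (adjusted p = 0.0138), with 13.2 and 15.8 in BL and 0 in both MII libraries.

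**Figure D4:**
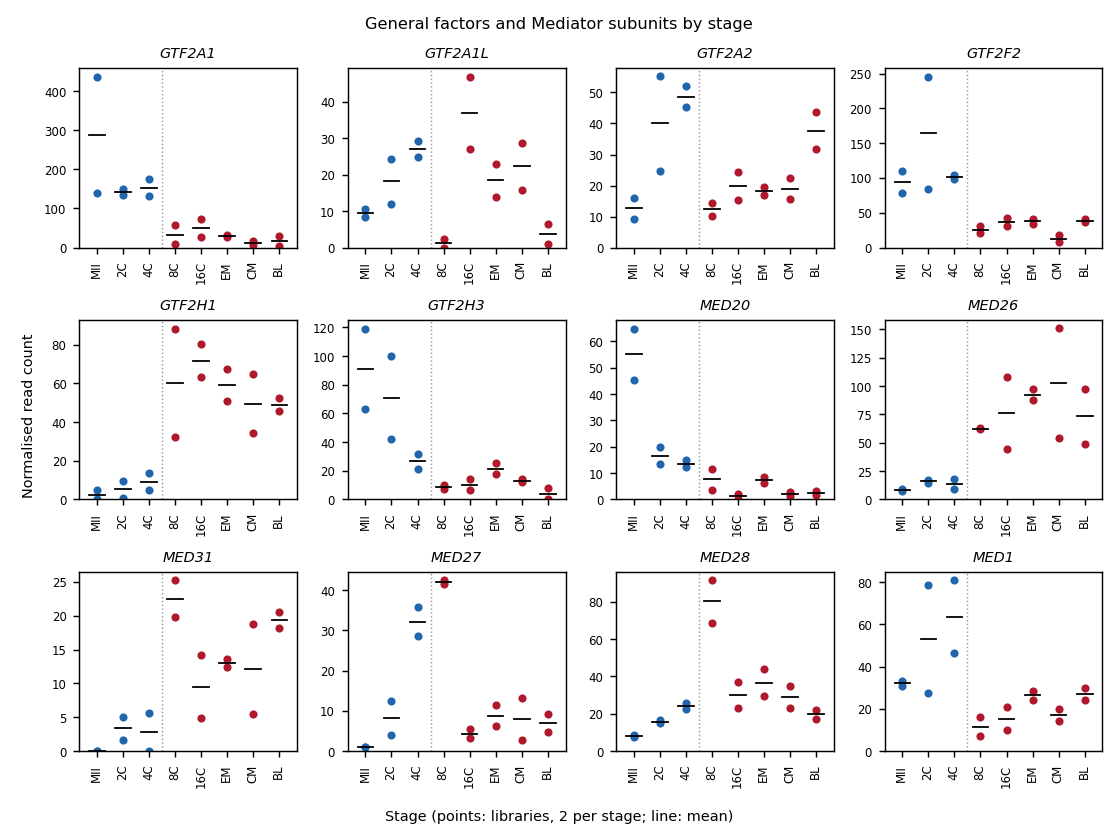
Normalised read counts (linear axis from 0) of 6 general transcription factor genes and 6 Mediator genes at each stage, with blue points for libraries before EGA, red points for libraries after EGA and a bar for the mean of the 2 libraries. GTF2H1 rises and GTF2H3 falls at EGA, GTF2A1L dips to 0 and 2.29 in 8C between higher values in 4C and 16C, and MED27 and MED28 are highest in 8C.

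Mediator has 32 members, 18 of them tested at EGA: 4 were higher, 4 were lower and 10 did not pass, with a median log2 change of -0.07 (all loci: 36.9% higher, 29.9% lower, median 0.23). Both directions occurred within single modules. In the head, which binds Pol II, MED8 rose from a median of 3.02 (0 to 13) to a median of 20.5 (9.80 to 29.9) (log2 change 2.41 ± 0.57 SE, adjusted p = 0.00083). MED20 fell from a median of 17.2 (12.2 to 64.9) to a median of 2.93 (0 to 11.5) (log2 change -2.58 ± 0.54 SE, adjusted p = 0.000263), and had 45.2 and 64.9 in MII and 13.5 and 19.7 in 2C, a step that did not pass on its own. In the middle module, MED26, a docking site for elongation factors, went from a median of 11.7 (7.45 to 17.5) to a median of 75.3 (44.6 to 151) without overlap (log2 change 2.58 ± 0.35 SE, adjusted p = 1.45e-06). MED31 had 0 and 0 in MII, 1.58 and 5.11 in 2C and 0 and 5.69 in 4C, and 4.85 to 25.2 after EGA (log2 change 2.77 ± 0.52 SE, adjusted p = 8.62e-05). MED1, the subunit that nuclear receptors bind, fell from a median of 39.8 (27.7 to 81.2) to a median of 20.4 (7.21 to 30.1) (log2 change -1.28 ± 0.39 SE, adjusted p = 0.00643). This call was lost when libraries were scaled by total reads (-0.81, adjusted p = 0.146).

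Between head and tail, MED28 rose from a median of 15.8 (7.38 to 25.8) to a median of 32.04 (17.2 to 91.8) (log2 change 1.18 ± 0.41 SE, adjusted p = 0.0159). It was highest in 8C, at 68.5 and 91.8, and had 22.9 and 37.2 in 16C. MED27 followed a course that the comparison at EGA does not show (0.35 ± 0.70 SE, adjusted p = 0.669): it rose from 0.923 and 1.06 in MII over 3.96 and 12.4 in 2C to 28.6 and 35.7 in 4C and 41.4 and 42.4 in 8C, and had 5.44 and 3.23 in 16C and 2.81 to 13.3 from EM on (stage effect, adjusted p = 0.00363). All 4 libraries of 4C and 8C lay above all others. In the tail, which activators bind, MED15 had a median of 582 (245 to 1437) before and a median of 280.0 (178 to 456) after EGA (log2 change -0.93 ± 0.38 SE, adjusted p = 0.0342). The call of MED15 was lost when libraries were scaled by total reads (-0.45, adjusted p = 0.260), without any filter, and without each of 6 libraries, of which MII replicate 1 moved it most (-0.65, adjusted p = 0.120). In the kinase module, which can detach from Mediator, MED13 fell by 0.97 on the log2 scale (SE 0.43, adjusted p = 0.0489). It went from a median of 24.6 (19.5 to 30.8) to a median of 12.6 (3.04 to 30.97), and its call was lost under 17 of the alternatives, 12 of them leaving out a library, with values of -1.04 to -0.78. When libraries were scaled by total reads it was -0.52 (adjusted p = 0.328). MED13L, its paralog, spanned 344 to 8255 normalised counts before EGA and 522 to 2957 after at its main locus (0.21 ± 0.55 SE, adjusted p = 0.743). MII replicate 1 was the highest and MII replicate 2 had 2006. Of the partners of this module outside the members, cyclin C (CCNC) rose from a median of 10.1 (0 to 19.8) to a median of 65.9 (31.03 to 195) (log2 change 3.35 ± 0.59 SE, adjusted p = 4.38e-05), while its kinase CDK8 had a median of 55.3 (8.31 to 91.3) before and a median of 20.4 (10.1 to 43.8) after (-0.75 ± 0.47 SE, adjusted p = 0.168).

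**Figure D5:**
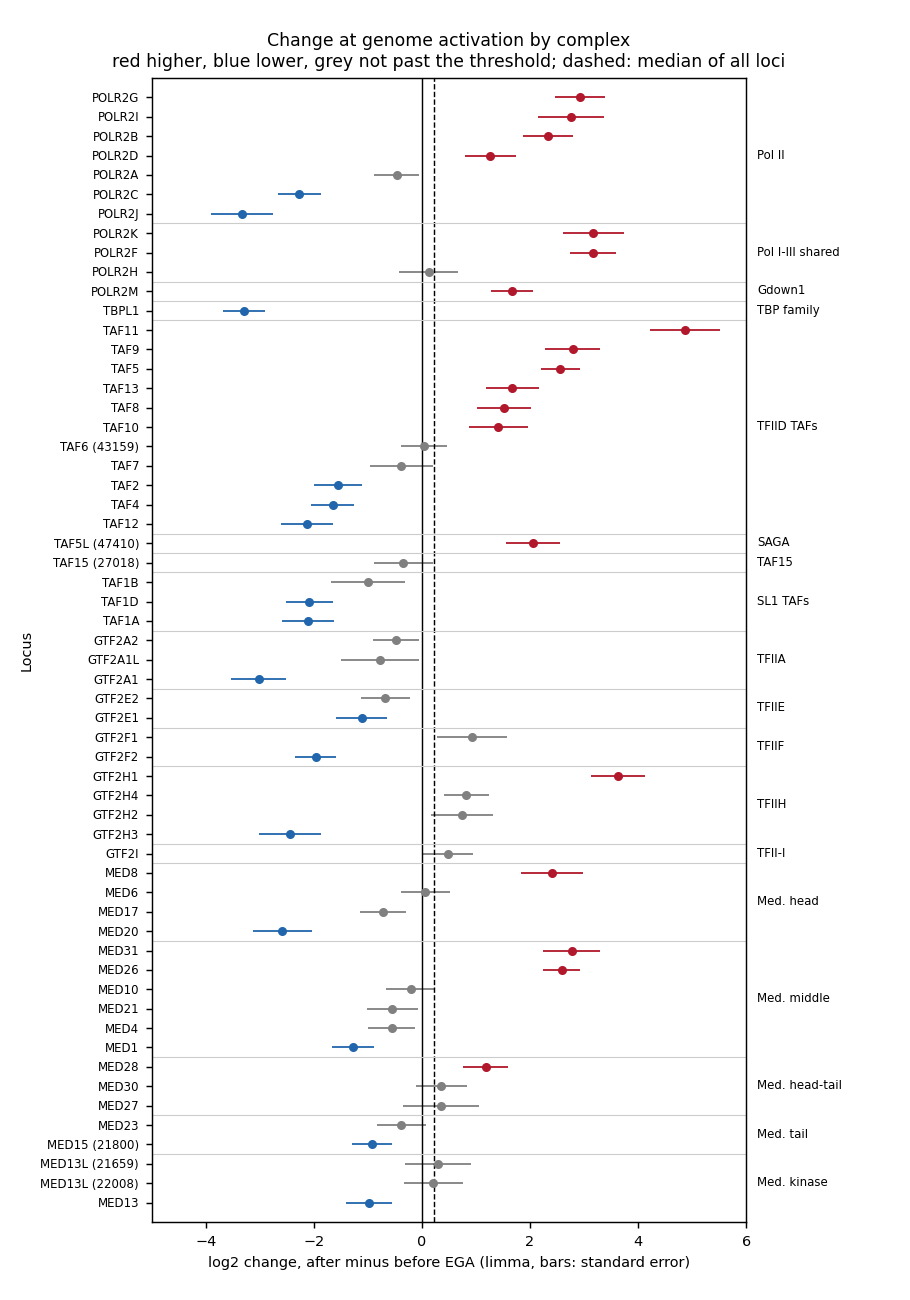
Log2 change from before to after EGA for the 58 tested loci, grouped by complex, with standard errors as bars, red for higher, blue for lower and grey for values that did not pass an adjusted p of 0.05. The dashed line is the median of all 6910 loci (0.23), the largest rise is that of TAF11 (4.86) and the largest fall that of POLR2J (-3.33).

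The members with the least movement were found in TFIID and Mediator. Among those without a call over the stages, MED10, TAF6 and MED6 had the smallest ranges of stage means, 1.32, 1.36 and 1.38 on the log2 scale, and their adjusted p-values were 0.709, 0.501 and 0.687. MED10 had a median of 23.01 (11.1 to 33.2) before and a median of 24.9 (3.60 to 36.7) after EGA. Its groups overlapped along nearly their whole range. Missing the threshold does not show that these levels were equal.

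The step at EGA itself was examined between 4C and 8C, in a model in which all 8 stages share 1 estimate of spread. Of 70 members tested, 14 were higher in 8C (20%, against 17.7% of all loci) and 10 were lower (14.3%, against 19.1%), with a median log2 change of 0.01 against -0.08 for all loci. Of those higher, 13 were also among the members higher after EGA, and 6 of those lower were also lower after EGA. These comparisons share the 4C and 8C libraries, and no member was called in opposite directions. The largest rises were those of TAF11, from 15.7 and 30.9 to 391 and 197 (log2 change 3.60 ± 0.63 SE, adjusted p = 0.000709), POLR2K, from 0.922 and 1.62 to 36.03 and 18.4 (3.58 ± 0.85 SE, adjusted p = 0.0049), and MED31, from 0 and 5.69 to 19.8 and 25.2 (3.18 ± 0.93 SE, adjusted p = 0.0156). Of 11 Pol II subunits tested in this step, POLR2B, POLR2F, POLR2G and POLR2K rose and 7 did not pass. The call of POLR2G was lost under 19 of the alternatives. MED29, which the EGA test could not include, rose on 13 reads against 1 (ratio 21.1, exact 95% counting interval 3.17 to 896).

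TFIIA stood on the other side. All 3 of its members were lower in 8C than in 4C, where 19.1% of all loci were: GTF2A1L fell from 24.9 and 29.2 to 0 and 2.29 (log2 change -3.95 ± 0.81 SE, adjusted p = 0.00201), GTF2A1 from 131 and 175 to 9.01 and 57.3 (-2.66 ± 0.91 SE, adjusted p = 0.0332) and GTF2A2 from 45.2 and 51.98 to 14.4 and 10.3 (-1.91 ± 0.61 SE, adjusted p = 0.0242). The call of GTF2A1 was lost under 8 of the alternatives, that of GTF2A2 under 5 and that of GTF2A1L under 1. GTF2A1L, the germ-cell form of the large TFIIA subunit, rested on 63 reads in 4C against 2 in 8C (ratio 19.4, exact 95% counting interval 5.16 to 164). After GTF2A1L, the largest falls called in this step were those of TAF1D, from 529 and 564 to 117 and 26.4 (-3.27 ± 0.62 SE, adjusted p = 0.00117), and of a GTF2IRD2 locus, with 31 reads in 4C against 1 in 8C (ratio 19.1, exact 95% counting interval 3.18 to 779). Both exceeded the falls of GTF2A1 and GTF2A2 on the log2 scale. TBPL1 went from 171 and 129 to 21.6 and 79.1 (-1.81 ± 0.66 SE, adjusted p = 0.0411), a call lost under 11 of the alternatives.

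The calls between 4C and 8C depended on single libraries. The number higher was 7 without 4C replicate 1 and 5 without 4C replicate 2, and the number lower was 3 and 4 in these cases and 5 without 8C replicate 1. Fitted on the 4 libraries of the 2 stages alone, 3 members were higher and 0 lower, and edgeR and DESeq2 on the recovered reads left 5 and 6 lower. TAF11 and TAF5 were the only 2 of the 24 calls that held under all of the alternatives, and 29 of the 35 calls at EGA did so. The oocyte marker sum of 1772 in 8C replicate 2, against 41.4 in 8C replicate 1, lies beside these values, and its part in them was not tested. At EGA the counts were 19 higher and 15 lower when the 8-cell stage was left out.

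The remaining steps gave few calls. Between MII and 2C, TAF11 was higher (log2 change 3.86 ± 0.63 SE, adjusted p = 0.0145) and no member was lower (1.2% and 0.217% of all loci, 9 members at an unadjusted p under 0.05). The call of TAF11 in this step was lost without MII replicate 2 or 2C replicate 2. Between 2C and 4C no member passed in limma, edgeR or DESeq2 (0.0% of all loci in limma, 4 members at an unadjusted p under 0.05). Between 8C and 16C, GTF2A1L returned from 0 and 2.29 to 27.2 and 46.9 (log2 change 4.34 ± 0.81 SE, adjusted p = 0.0293, 0.548% of all loci higher and 0.31% lower, 10 members at an unadjusted p under 0.05), on 54 reads against 2 (ratio 25.1, exact 95% counting interval 6.61 to 212). This call was absent in edgeR, without either 16C library and without either 4C library. No member passed between 16C and EM or between EM and CM in limma, edgeR or DESeq2 (0.103% and 0.0% of all loci in limma, 7 and 3 members at an unadjusted p under 0.05). Between CM and BL, TAF12 rose from 3.32 and 0.938 to 23.3 and 9.51 (log2 change 2.47 ± 0.66 SE, adjusted p = 0.0455, 2.92% of all loci higher and 1.5% lower, 12 members at an unadjusted p under 0.05). It was not called by edgeR or DESeq2, and was lost on leaving out any 1 of 13 libraries.

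Several of these genes have a paralog known from germ cells or from tissue-specific complexes, and the ratio of paralog to parent within a library was compared before and after EGA by an exact two-sided permutation test over all 8008 splits. Of 12 listed pairs, 5 had enough reads. The log2 ratio of TAF4B, the gonad-enriched form of TAF4, to TAF4 was -5.17 to -2.26 before EGA and -2.68 to 1.47 after, a difference of 3.47 with the pseudocount of 1 (exact permutation p = 0.000375, adjusted over 5 pairs 0.00187). TAF4B had no read in 3 of the 6 libraries before EGA, where the ratio is set by TAF4 and the pseudocount, and the difference was 3.94 with a pseudocount of 0.5 and 2.22 with 5, so its size cannot be fixed. TAF4 fell, as above, while TAF4B had 0 in both MII libraries, 0 and 1.46 in 2C, 4.61 and 4.87 in 4C, 0 and 11.5 in 8C, 2.18 and 11.3 in 16C, 13.9 and 17.99 in EM, 5.54 and 13.1 in CM and 5.07 and 4.75 in BL. The log2 ratio of GTF2A1L to GTF2A1 rose by 2.25 (exact permutation p = 0.0142, adjusted 0.0356), from -5.56 to -2.35 before EGA to -4.15 to 0.99 after. This call was lost with a pseudocount of 0.5 (adjusted 0.0743) and without any 1 of 9 libraries, of which MII replicate 1 moved the value most (1.80, adjusted 0.0677). The ratios of MED13L to MED13 (difference 1.18, exact permutation adjusted p = 0.141), MED12L to MED12 (-1.43, adjusted 0.141) and TAF5L to TAF5 (-0.51, adjusted 0.439) did not pass. Without MII replicate 1 the MED13L ratio did pass (1.76, adjusted 0.0208). The ratios of TBPL1 and TBPL2 to TBP, TAF7L to TAF7 and TAF9B to TAF9 could not be formed, since TBP, TAF7L and TAF9B had no read, and TAF6L, TAF1L and GTF2H2C were not analysed here.

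In all, 7 loci had no read in any library: MED14, the central scaffold of Mediator, MED16, POLR2L, TAF9B, TBP, the second locus of TAF5L, and TAF7L. All but TAF7L lie within the run of consecutive loci at 0, so their 0 is no measure of expression. A further 13 loci had reads but stayed under the filter for every test, namely MED9, MED11, MED22, MED24, MED25, TAF1, TAF1C, TAF3, TBPL2 and the smaller loci of GTF2IRD2, MED15, TAF15 and TAF6. The minor locus of MED13L held 2.88% to 29.5% of that name's reads (median 15.6%) and that of MED15 0% to 3.29%. In the RefSeq annotation of the ARS-UCD2.0 assembly, POLR2B overlaps IGFBP7, POLR2C overlaps DOK4, POLR2I overlaps OVOL3, TAF4 overlaps CDH4, TAF5 overlaps ATP5MK, TAF9 overlaps AK6, TAF10 overlaps ILK, TBPL1 overlaps SLC2A12, GTF2F2 overlaps KCTD4, MED20 overlaps USP49 and MED31 overlaps KIAA0753. GTF2E1 also overlaps RABL3, GTF2E2 overlaps SMIM18, TAF6 overlaps AP4M1 and MED12L overlaps P2RY12 and others. Long noncoding RNA genes overlap GTF2H1, MED13L, MED4 and MED27, and the list here is not complete. Whether reads were counted by strand was not stated in the sources used here, so reads of such neighbours cannot be told apart.

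Further transcription genes were taken from a list of 83 names, which holds genes that act on Pol II around and after initiation as well as subunits and factors of Pol I and Pol III, and of which 78 were in the table and 58 were tested at EGA. Of these, 21 were higher, 8 lower and 29 did not pass. The number higher lies near the share of all loci (36.9%) and the number lower under it (29.9%), a difference that was not tested. Of 10 genes tested for P-TEFb, the kinase that releases paused Pol II, and its control, 6 were higher and 1 lower, beside 36.9% and 29.9% of all loci. HEXIM1, which holds P-TEFb inactive, had 2 reads in all libraries before EGA and 457 after (ratio 183, exact 95% counting interval 50.5 to 1518), with a median of 45.9 (21.1 to 74.1) normalised counts after EGA (adjusted p = 1.04e-09). ELL2, an elongation factor, rose from a median of 4.88 (0 to 17.5) to a median of 42.1 (4.06 to 139.9) (log2 change 2.58 ± 0.70 SE, adjusted p = 0.0028), and MEPCE, the capping enzyme of the 7SK RNA, fell from a median of 26.2 (7.45 to 61.8) to a median of 9.29 (1.09 to 28.7) (-1.43 ± 0.57 SE, adjusted p = 0.0318).

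Of 14 pausing and elongation factors, 5 were higher and 3 lower, which is no more than the shares of all loci (36.9% and 29.9%). SUPT4H1, a subunit of the pausing factor DSIF, had 4 reads before EGA and 614 after (ratio 123, exact 95% counting interval 47.8 to 453), and TCEB2 (elongin B) rose from a median of 75.2 (38.7 to 105) to a median of 632 (265 to 1123) (log2 change 2.95 ± 0.38 SE, adjusted p = 8.06e-07). SUPT16H, of the histone chaperone FACT, fell from a median of 1189 (258 to 3033) to a median of 151 (71.01 to 317) (-2.59 ± 0.49 SE, adjusted p = 9.75e-05), and LEO1, of the PAF complex, from a median of 63.2 (7.45 to 137) to a median of 12.1 (4.75 to 37.1) (-1.61 ± 0.55 SE, adjusted p = 0.0142). Among enzymes of the C-terminal domain and assembly factors, 3 were higher and 1 lower of 10, also no more than those shares. RPRD1A, which binds that domain, rose by 2.33 ± 0.46 SE (adjusted p = 0.000149), GPN1, which brings Pol II into the nucleus, by 1.84 ± 0.58 SE (adjusted p = 0.00861), and CTDSPL2, a phosphatase-like protein, changed by -0.92 ± 0.38 SE (adjusted p = 0.0387) on the log2 scale.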

How the data were processed

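Single bovine oocytes and embryos were sequenced on the SOLiD platform after 2 rounds of RNA amplification. Per the submitters' processing notes, cutadapt, FastQC, TopHat, Cufflinks and HTSeq were used, and the genome build and strand setting are not given in the sources used here. The deposited table holds a signal for 27393 loci, which the authors made by dividing read counts by a size factor per library. Dividing each column by its smallest value gave whole reads for 100% of non-zero values (tolerance 0.01), and these recovered counts served for filters, depth and count models. Limma 3.58.1 (R 4.3.3, trend, empirical Bayes) was fitted to log2(value + 1) over the whole table, with loci kept by filterByExpr of edgeR 4.0.16, Benjamini-Hochberg adjustment and a threshold of 0.05. Folds on this scale understate changes of low genes. The fits were tested on simulated counts with known changes. Paralog ratios were tested by exact permutation. Alternatives were pseudocounts of 0.5 and 5, no filter, other scalings, DESeq2 1.42.0, edgeR, a replicate block, fewer stages and leaving out each library. Counting intervals and floors cover counting error only, not amplification. Members and lists were chosen with earlier results of these data known. Named with values were POLR2A, the TBP family, paralog pairs, the up to 3 largest changes at EGA in each complex, the largest changes between stages, the 3 steadiest members and the 2 largest changes each way in each further list, and other members are named to complete a complex or as chosen after their values were seen. The RefSeq gene table of ARS-UCD2.0 was used for names and neighbours only, and matched 83 of the 84 names. One gene of the further lists is not reported here.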

Additional observations from a re-analysis of the deposited data

Results flagged for a closer look

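In 116 groups of 6 or 10 libraries, 12 values in 7 libraries lay apart from the rest of their group by Dixon's test, and chance alone marks about 1 in 20 groups. Before EGA, POLR2B was low in 4C replicate 2, at 1.62 normalised counts against 10.1 to 24.5 in the other libraries. POLR2D was low in MII replicate 1, at 1.85 against 11.7 to 25.8, and TAF8 was low in 2C replicate 1, at 2.37 against 5.54 to 7.45. POLR2K was high in 2C replicate 2, at 16.4 against 0.922 to 3.19, and so was GTF2F2 in the same library, at 245.6 against 78.5 to 111. GTF2A1 was high in MII replicate 1, at 437 against 131 to 175.

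After EGA, TBPL1 was high in 8C replicate 2, at 79.1 against 14.2 to 27.2, and TAF1D was low in the same library, at 26.4 against 104 to 258. GTF2F2 was low in CM replicate 1, at 7.76 against 17.8 to 42.0. In BL replicate 2, MED4 was low at 12.7 against 45.7 to 177, TAF9 was low at 7.92 against 40.6 to 92.3, and GTF2H3 had 0, which the floor of 3 reads puts at up to 4.75 normalised counts, against 6.47 to 25.02 in the others.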

How the results depend on the processing

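No alternative turned the direction of a called member. Of the calls at EGA 29 of 35 held under all alternatives, and of those between 4C and 8C 2 of 24. Leaving out 1 library gave 17 to 20 members higher and 13 to 15 lower at EGA, 34 to 45 with a stage effect, 5 to 14 higher and 3 to 10 lower between 4C and 8C, 0 to 1 higher between MII and 2C, 0 to 2 each way between 8C and 16C, and 0 to 1 higher and 0 to 2 lower between CM and BL. For the paralog ratios it gave 1.80 to 2.59 (GTF2A1L), 3.20 to 3.78 (TAF4B), -1.80 to -1.12 (MED12L), 0.80 to 1.76 (MED13L) and -0.91 to -0.03 (TAF5L). Fitting 2 stages alone, with few residual degrees of freedom, left 3 higher and 0 lower between 4C and 8C, and 0 higher between MII and 2C, 8C and 16C, and CM and BL. Between MII and 2C, 0 were higher with a pseudocount of 5, 3 with scaling by total reads, and 1 was lower in DESeq2. Between 4C and 8C, 6 were lower in DESeq2 and 5 in edgeR. Between 8C and 16C, 0 were higher in edgeR and 1 was lower with a pseudocount of 5. Between CM and BL, 0 were higher in DESeq2, edgeR, TMM scaling or a pseudocount of 5. The GTF2A1L ratio became 2.14 with a pseudocount of 0.5 and no longer passed. The cause of these differences was not tested. At EGA, scaling by total reads gave 20 higher and 12 lower, and no filter 25 and 17.

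Libraries with the same replicate number are different embryos. Their deviations from the stage means correlated at -0.26 to 0.13 over 28 pairs of stages, 1 of them over 0.1, so the number did not pair them. A replicate block gave 19 higher and 15 lower at EGA, 13 and 10 between 4C and 8C, and 41 with a stage effect. Comparisons of neighbouring stages rest on 2 libraries each. A library of 607672 reads gives a floor of 4.85 normalised counts.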

Other observations

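Subunits of the other nuclear polymerases were read from the same list of transcription genes, as a background to the subunits that Pol II shares with them. Of 7 Pol I subunits tested at EGA, 3 were higher, beside 36.9% of all loci, and 4 did not pass. TWISTNB, the Pol I stalk subunit, had 6 reads in all libraries before EGA and 548 after (ratio 73.3, exact 95% counting interval 33.4 to 201). CD3EAP rose from a median of 8.70 (4.87 to 20.3) to a median of 48.6 (9.70 to 117) normalised counts (log2 change 2.06 ± 0.49 SE, adjusted p = 0.000948). POLR3F, a subunit of Pol III, had no read in the 6 libraries before EGA and 428 reads in the 10 after, which is at least 114-fold higher with the floor of 3 reads over the group, and 7 of the Pol III subunits tested did not pass. BDP1, a factor that recruits Pol III, rose from a median of 7.06 (3.17 to 29.5) to a median of 30.1 (16.2 to 101) (1.61 ± 0.49 SE, adjusted p = 0.00639).

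Markers of other cells gave these values. The cumulus and granulosa markers summed to 1258 to 2625 before EGA and 406 to 1041 after, nearly all of it STAR and HAS2, with AMH, FOXL2 and INHA at 0, and both members tested fell. The trophectoderm markers summed to 1280 and 1308 in BL, to 54.0 and 18.4 in 8C and to 27.7 to 60.9 before EGA. In 16C the means of KRT18, KRT8, IFNT2, GATA2 and GATA3 were 64.0, 52.9, 46.7, 35.1 and 33.8, while TFAP2A and CDX2 were at 0. CDX2 had 1 read, which lay in 8C and not in BL. ELF3 had no read, but lies in the run of consecutive loci at 0 and cannot be read. The inner cell mass markers summed to 288 to 510 before EGA and 1881 to 8637 after, nearly all of it POU5F1, while NANOG had no read before EGA and SOX2 had too few reads for the EGA test. The blood markers were at 0 but for 7.21 in 8C replicate 1. The part of these cell types in the changes of the members was not tested.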
